A study of Mus musculus with 4 samples.

Results

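The genes described here are 10 CXC chemokine ligands of the mouse, Cxcl1, Cxcl2, Cxcl3, Cxcl9, Cxcl10, Cxcl12, Cxcl13, Cxcl14, Cxcl16 and Pf4, the gene of platelet factor 4. They were chosen by name, as transcript clusters to which the platform annotation gives exactly 1 gene symbol. Each had 1 such cluster, so they are 10 of the 22180 genes in the table, and all 10 were bright enough to be tested among 13133 genes. Levels were measured in macrophages sorted from the ear dermis of untreated adult C57Bl/6 mice with the genotype Cx3cr1+/gfp, in which the coding sequence for green fluorescent protein replaces 1 Cx3cr1 allele, so every animal of both groups carried a single intact copy. The CX3CR1bright cells (2 arrays) and the CX3CR1low cells (2 arrays) differ in the level of CX3CR1, the fractalkine receptor, by which they were sorted. Each sample is a pool of 3 to 6 mice, and the replicates of a subset came from 2 independent litters. Levels are log2 values made with RMA, a method that subtracts background, equalises the arrays and summarises the probes of a transcript. A difference is CX3CR1bright minus CX3CR1low, so that 1 unit is a 2-fold change.

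CXC chemokines are small secreted proteins that direct leukocyte movement through receptors of the CXCR family. A first branch, with Cxcl1, Cxcl2 and Cxcl3, draws neutrophils through Cxcr2 and is switched on by NF-kB. A second, with Cxcl9 and Cxcl10, is induced by interferons and draws T cells and natural killer cells through Cxcr3. Others position cells at rest: Cxcl12 acts on Cxcr4, Cxcl13 on Cxcr5 of B cells, and Cxcl16 is a membrane-anchored ligand of Cxcr6 and a scavenger receptor.

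The sort was checked first. Cx3cr1 stood at 8.43 ± 0.011 in CX3CR1bright and 3.62 ± 0.023 in CX3CR1low cells (SD, n = 2 each). All 10 listed macrophage markers, Csf1r and Adgre1 among them, lay above the array median on every array, and their mean level was 10.22 and 10.24 on the CX3CR1bright arrays and 10.52 and 10.61 on the CX3CR1low arrays. Array medians ran from 3.65 to 3.68, and a level close to them can be background. Markers of other skin cells also differed between arrays. The 9 keratinocyte markers in the table averaged 5.88 and 7.60 on CX3CR1bright replicates 1 and 2, against 5.65 and 5.01 on CX3CR1low replicates 1 and 2. The 10 fibroblast markers averaged 6.85 and 7.03, against 6.02 and 5.95, and the 6 Langerhans cell markers 7.13 and 8.16, against 6.36 and 6.23. In such bulk samples fewer cells of a type and less RNA per cell cannot be told apart.

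Across the family, 7 of the 10 ligands were higher in CX3CR1bright cells without overlap between the subsets, namely Cxcl1, Cxcl2, Cxcl3, Cxcl10, Cxcl12, Cxcl14 and Cxcl16. Over all genes tested, 18.9% were higher without overlap. Pf4 alone was lower without overlap, 1 of 10, where 31.5% of all genes tested were. Cxcl9 and Cxcl13 overlapped. The median difference of the 10 ligands was 0.58, beside -0.070 over all genes tested. No ligand passed the adjusted threshold of 0.05 (limma), which 0.137% of all genes tested passed. At an unadjusted p under 0.05 (limma) 6 ligands were higher and 0 lower, where 7.03% of all genes tested were higher and 11.8% lower. Both Cxcl10 and Cxcl14 lay at least 2-fold higher without overlap, as 2.94% of all genes tested did. The differences below are therefore sizes with their error, and none of them is a call after adjustment.

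**Figure D1:**
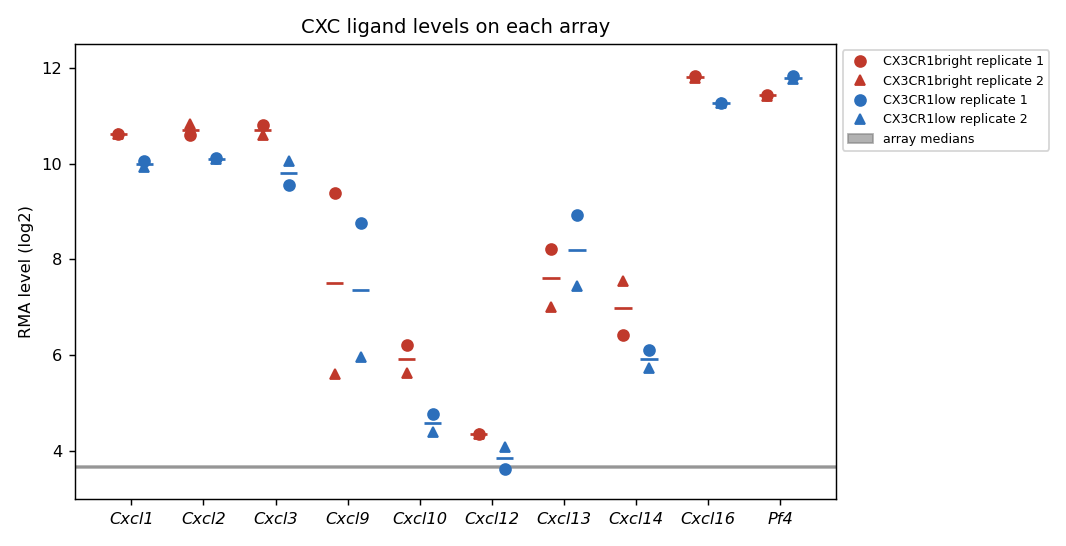
RMA level on the log2 scale (vertical axis) of each of the 10 ligands on each array, with CX3CR1bright in red at the left and CX3CR1low in blue at the right of each gene. Circles are replicate 1, triangles replicate 2, short lines the mean of 2 arrays and the grey band the array medians (3.65 to 3.68). Cxcl9 and Cxcl13 spread between replicates of both subsets, while Cxcl16 and Pf4 hardly do.

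The neutrophil-attracting ligands were all higher on both CX3CR1bright arrays than on both CX3CR1low arrays. Cxcl1 (transcript cluster 17438987) stood at 10.63 and 10.61 on the CX3CR1bright arrays, against 10.07 and 9.94 on the CX3CR1low arrays, with replicate 1 given before replicate 2 here and below. The difference was 0.62 ± 0.18 (SE, n = 2 each), or 1.53-fold with a 95% confidence interval of 1.11 to 2.11 (limma, adjusted p = 0.180). Cxcl2 (cluster 17438995) stood at 10.59 and 10.83 in CX3CR1bright cells, against 10.11 and 10.09 in CX3CR1low cells. Its difference was 0.61 ± 0.19, or 1.53-fold with an interval of 1.09 to 2.14 (limma, adjusted p = 0.192). Cxcl3 (cluster 17438975) had levels of 10.81 and 10.61 in CX3CR1bright cells, against 9.56 and 10.06 in CX3CR1low cells, where its replicates were 0.50 apart, a gap that 16.8% of genes tested reached. Its difference was 0.90 ± 0.24, or 1.87-fold with an interval of 1.22 to 2.86 (limma, adjusted p = 0.161). The intervals of the 3 ligands overlap, and whether the differences of the 3 differ in size was not tested.

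The 3 genes are paralogs that lie close together on chromosome 5, and the probes of such genes may pick up each other's transcripts. In the RefSeq annotation of GRCm38.p6, Cxcl1 and Cxcl2 are direct neighbours among protein-coding genes, and Cxcl3 lies between Pf4 and Cxcl15. Keratinocytes and fibroblasts can also make these ligands, and markers of both averaged higher on the CX3CR1bright arrays. On CX3CR1bright replicates 1 and 2 keratinocyte markers averaged 5.88 and 7.60, and fibroblast markers 6.85 and 7.03. Cxcl1 stood at 10.63 and 10.61 on these arrays, Cxcl2 at 10.59 and 10.83 and Cxcl3 at 10.81 and 10.61. The part of keratinocytes and fibroblasts in the levels of these ligands was not tested. Of the neutrophil markers, 6 of 10 lay below the array median on every array, S100a8, Ly6g and Elane among them, and the list averaged 3.42 and 3.35 in CX3CR1bright cells, against 3.29 and 3.21 in CX3CR1low cells.

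Because these ligands had like differences, the 250 bases before their annotated starts are shown, with those of the interferon-induced pair below. Sequences are from RefSeq, build GRCm38.p6, and 9 of the 10 ligands matched; Cxcl16 did not. Capitals mark matches, on either strand, to GGGNNNNNCC, a general form of the kappaB site bound by NF-kB, and to GAAANNGAAA, a form of the interferon-stimulated response element (ISRE); matches that overlap run together. The stretches are chr5:90890995-90891244 for Cxcl1, chr5:90903649-90903898 for Cxcl2 and chr5:90785851-90786100 for Cxcl3, all on the plus strand.
Cxcl1: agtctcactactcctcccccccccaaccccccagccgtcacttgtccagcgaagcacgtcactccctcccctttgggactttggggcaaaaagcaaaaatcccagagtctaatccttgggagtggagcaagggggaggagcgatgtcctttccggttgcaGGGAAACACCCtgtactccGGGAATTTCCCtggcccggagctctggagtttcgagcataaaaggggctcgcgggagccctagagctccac
Cxcl2: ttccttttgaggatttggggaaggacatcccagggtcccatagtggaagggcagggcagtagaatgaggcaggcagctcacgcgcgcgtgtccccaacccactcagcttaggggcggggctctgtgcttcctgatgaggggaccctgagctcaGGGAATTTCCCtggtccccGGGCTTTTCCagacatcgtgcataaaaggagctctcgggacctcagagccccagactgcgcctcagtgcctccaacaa
Cxcl3: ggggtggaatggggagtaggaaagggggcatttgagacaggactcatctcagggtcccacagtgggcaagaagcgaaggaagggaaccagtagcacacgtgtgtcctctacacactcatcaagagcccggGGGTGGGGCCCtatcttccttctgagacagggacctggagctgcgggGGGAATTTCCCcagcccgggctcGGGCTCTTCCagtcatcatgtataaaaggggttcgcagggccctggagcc
The longest stretch that all 3 windows share is GGGAATTTCCC, a kappaB match on both strands. Its last base lies 61 bases before the start in Cxcl1, 87 in Cxcl2 and 63 in Cxcl3. These 11 letters, found from the windows themselves and then searched on both strands, occur in 14 of 32851 promoter windows of the same length (0.0426%). The 3 windows are among the 14. As the letters were taken from these windows, the share is no test of them. The general form is common: 45.8% of windows hold it, and so do 7 of the 9 ligands with a window. A match describes the letters and does not show that a factor binds there.

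**Figure D2:**
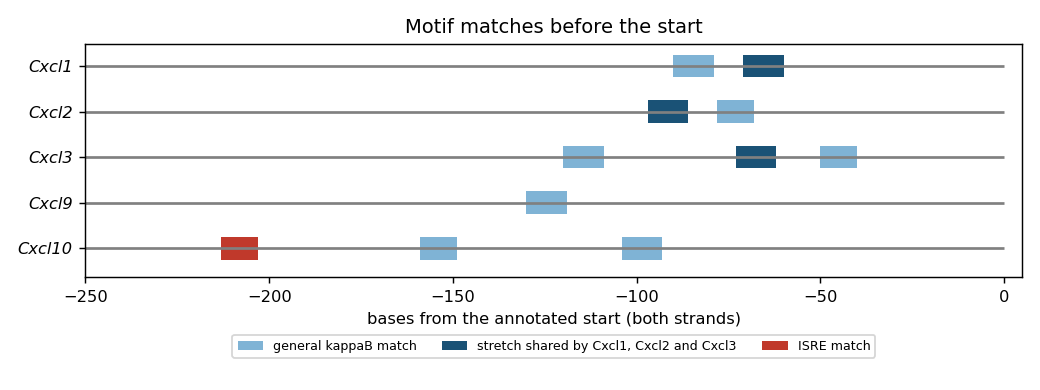
Motif matches in the 250 bases before the annotated start of 5 ligands, with distance from the start in bases on the horizontal axis and 1 line per gene. Light blue bars are matches to the general kappaB form, dark blue bars the stretch of 11 letters shared by Cxcl1, Cxcl2 and Cxcl3 and the red bar the ISRE form. Dark bars are present in Cxcl1, Cxcl2 and Cxcl3, and the red bar in Cxcl10 alone of these 5 genes.

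The interferon-induced ligands Cxcl10 and Cxcl9 had different patterns over the arrays. Cxcl10 (cluster 17449718), a Cxcr3 ligand, stood at 6.22 and 5.63 in CX3CR1bright cells, against 4.76 and 4.39 in CX3CR1low cells. Both CX3CR1bright arrays lay above both CX3CR1low arrays, and the difference of 1.34 ± 0.28 was 2.54-fold, with a 95% confidence interval of 1.56 to 4.14 (limma, adjusted p = 0.112). It was the largest difference among the 10 ligands, and 2.50% of all genes tested differed by as much in either direction. Cxcl10 was the only ligand past the threshold under any alternative setting: with a stricter filter on dim genes, which tests fewer genes, its adjusted p was 0.0473 (limma), and over all settings it ran from 0.0473 to 0.496. With single arrays left out, the difference ran from 1.05 to 1.64. The CX3CR1low levels stood 0.74 or more above the array median.

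Cxcl9 (cluster 17449710), the other Cxcr3 ligand, stood at 9.38 and 5.62 in CX3CR1bright cells, against 8.75 and 5.97 in CX3CR1low cells. Replicate 1 was far above replicate 2 in both subsets, by 3.77 (13.6-fold) in CX3CR1bright and by 2.79 (6.89-fold) in CX3CR1low cells. Gaps that large were seen in 0.0761% of genes tested in CX3CR1bright and in 0.0381% in CX3CR1low cells, and 2 tested genes, Cxcl9 included, had both in this direction. Between the subsets the difference was 0.14 ± 1.45 with an interval of -3.54 to 3.81, so neither a large difference nor its absence is shown (limma, adjusted p = 0.970). Its sign turned to -1.74 without CX3CR1bright replicate 1 and to -1.25 without CX3CR1low replicate 2.

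The pair lie near each other on chromosome 5, with Art3 as the protein-coding gene between them. The stretches before their starts are chr5:92348890-92349139 for Cxcl10 and chr5:92328080-92328329 for Cxcl9, both on the minus strand and written here in the direction of transcription.
Cxcl10: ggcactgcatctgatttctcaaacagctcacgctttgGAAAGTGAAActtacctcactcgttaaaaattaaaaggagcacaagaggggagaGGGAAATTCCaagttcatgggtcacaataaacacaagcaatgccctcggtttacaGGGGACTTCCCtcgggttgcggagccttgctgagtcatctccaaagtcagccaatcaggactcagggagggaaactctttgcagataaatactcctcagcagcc
Cxcl9: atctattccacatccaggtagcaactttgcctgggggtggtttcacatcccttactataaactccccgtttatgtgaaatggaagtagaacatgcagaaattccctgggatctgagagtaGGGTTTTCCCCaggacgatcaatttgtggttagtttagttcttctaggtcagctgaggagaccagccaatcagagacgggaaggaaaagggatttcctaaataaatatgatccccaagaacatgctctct
The ISRE form is found in Cxcl10, with its last base 204 bases before the start, and not in these letters of Cxcl9. It occurs in 2.98% of all windows and in 2 of the 9 ligands, the other being Cxcl14. The general kappaB form occurs in both.

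Genes of the interferon-gamma pathway gave the setting for this pair. Of 15 listed genes 12 were tested, 6 with a positive and 6 with a negative difference, and their median of 0.022 compares with -0.070 over all genes tested. None passed the adjusted threshold (limma, 1 higher and 0 lower at an unadjusted p under 0.05, beside 7.03% and 11.8% of all genes tested), a share close to the background. The single gene was Jak2, a kinase of the interferon-gamma receptor, at 9.96 and 10.19 in CX3CR1bright cells, against 8.77 and 8.84 in CX3CR1low cells. Its difference was 1.27 ± 0.19 (limma, adjusted p = 0.0845). Jak1, the other kinase listed, overlapped between the subsets at 0.047 ± 0.21, as did the receptor gene Ifngr2 at -0.0041 ± 0.19. The receptor gene Ifngr1 differed by 0.43 ± 0.21, and the interferon-induced GTPase gene Gbp7 by -0.43 ± 0.24 and the transcription factor gene Irf8 by -0.42 ± 0.24, with adjusted p-values (limma) of 0.345 to 0.414.

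On 8 of these 12 genes replicate 1 was above replicate 2 in both subsets, beside a smaller share, 3483 of 13133, over all genes tested. Gbp4, an interferon-induced GTPase, stood at 6.47 and 3.16 in CX3CR1bright cells, against 6.37 and 3.35 in CX3CR1low cells, the same order as Cxcl9. It lay below the array median on replicate 2 of both subsets. Gbp4 was thus tested only through the replicate 1 arrays, where it is high, so it supports nothing as 1 of the 8. Ifng, the gene of interferon-gamma itself, was too dim to be tested, with 6.09 and 3.14 in CX3CR1bright cells, against 3.59 and 3.17 in CX3CR1low cells, so that it stood above the array median on CX3CR1bright replicate 1 alone. The 6 T cell markers in the table averaged 5.47 and 4.44 in CX3CR1bright cells, against 4.61 and 4.25 in CX3CR1low cells, and all 5 that were tested were higher on replicate 1 in both subsets. Of them the receptor chain gene Cd3g stood at 6.88 and 5.43, against 4.83 and 4.64, and Il2rb at 6.03 and 4.85, against 6.04 and 4.58. The part of T cells in the Cxcl9 levels was not tested.

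**Figure D3:**
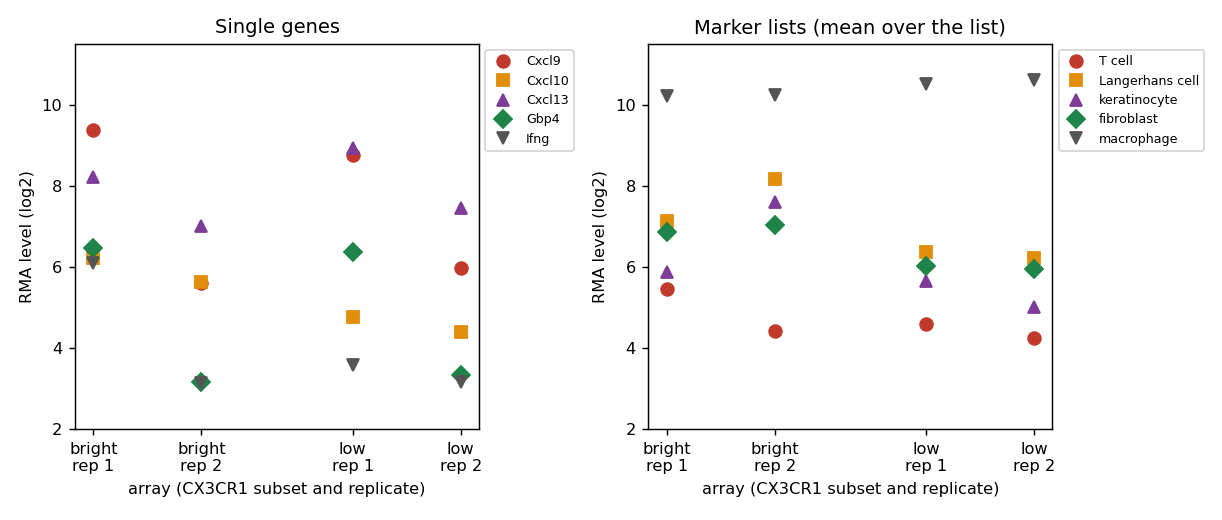
RMA level on the log2 scale (vertical axis) on the 4 arrays (horizontal axis, CX3CR1bright before CX3CR1low) of 5 single genes at the left and of 5 marker lists, as the mean over each list, at the right. Cxcl9 and Gbp4 are high on replicate 1 of both subsets, Ifng on CX3CR1bright replicate 1 (6.09), and keratinocyte markers on CX3CR1bright replicate 2 (7.60).

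Cxcl13, which draws B cells through Cxcr5, was also higher on replicate 1 of both subsets. Its levels (cluster 17439367) were 8.21 and 7.01 in CX3CR1bright cells, against 8.92 and 7.45 in CX3CR1low cells. The gaps between replicates, 1.20 and 1.47, were larger than the difference of -0.58 ± 0.61 (limma, adjusted p = 0.672), whose interval ran from -2.12 to 0.97. The sign turned to 0.024 without CX3CR1bright replicate 2 and to 0.16 without CX3CR1low replicate 1. Among all genes tested, 18 including Cxcl13 had gaps at least as large in this direction in both subsets.

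Cxcl14, a chemokine made at steady state by epithelia such as the epidermis, varied mostly among the CX3CR1bright arrays. It stood (cluster 17293006) at 6.42 and 7.54 in CX3CR1bright cells, against 6.12 and 5.74 in CX3CR1low cells. The difference was 1.05 ± 0.41, or 2.07-fold with an interval of 1.02 to 4.22 (limma, adjusted p = 0.259). It was 0.49 without CX3CR1bright replicate 2 and 1.61 without CX3CR1bright replicate 1. Marker means of keratinocytes, Langerhans cells, fibroblasts, pericytes and platelets had the same order over the arrays. On the arrays with 7.54, 6.42, 6.12 and 5.74 of Cxcl14, the keratinocyte mean was 7.60, 5.88, 5.65 and 5.01. The mean was 8.16, 7.13, 6.36 and 6.23 for Langerhans cells and 7.03, 6.85, 6.02 and 5.95 for fibroblasts. It was 4.90, 4.86, 4.85 and 4.76 for pericytes and 4.34, 4.32, 4.11 and 4.04 for platelets. Single markers differed in order, and 5 of the 10 fibroblast markers were higher on CX3CR1bright replicate 1 than on replicate 2. Of the Langerhans cell markers, Epcam stood at 4.53 and 6.73 and Cdh1 at 6.47 and 9.24 on those arrays. Cd207 stood at 6.97 and 7.54 there, and Il1r2 at 8.18 and 7.98. The part of these cell types in the Cxcl14 level was not tested. The genes nearest to it in pattern, by distance between centred levels over the 4 arrays, were Hr, a regulator of the hair follicle, Cd24a and Pdzk1ip1, at distances of 0.070, 0.078 and 0.13.

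Cxcl12, the Cxcr4 ligand that stromal cells make in many tissues, was dim. Its levels (cluster 17462149) of 4.36 and 4.36 in CX3CR1bright cells, against 3.63 and 4.09 in CX3CR1low cells, lay close to the array medians, and CX3CR1low replicate 1 fell below its own. The difference was 0.50 ± 0.23 with an interval of -0.077 to 1.07 (limma, adjusted p = 0.319), and 0.27 without CX3CR1low replicate 1. Fibroblast markers averaged 6.85 and 7.03 in CX3CR1bright cells, against 6.02 and 5.95 in CX3CR1low cells, with 9 of 10 higher without overlap, beside 18.9% of all genes tested, and their part in the Cxcl12 level was not tested.

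Cxcl16 and Pf4 were the most evenly measured of the family. Cxcl16 (cluster 17265268) stood at 11.84 and 11.78 in CX3CR1bright cells, against 11.26 and 11.27 in CX3CR1low cells. The difference was 0.55 ± 0.18, or 1.46-fold with an interval of 1.07 to 2.00 (limma, adjusted p = 0.201), and 0.52 to 0.58 with single arrays left out. Both CX3CR1bright arrays lay above both CX3CR1low arrays by far more than the gaps of 0.057 and 0.0058 between replicates. The SE of such evenly measured genes comes mostly from the variance that limma shares over all genes.

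Pf4, stored in platelet granules and also transcribed by some tissue macrophages, had the opposite sign. It stood (cluster 17438969) at 11.44 and 11.41 in CX3CR1bright cells, against 11.83 and 11.77 in CX3CR1low cells. The groups did not overlap, and the difference of -0.37 ± 0.18 corresponds to a level 1.30-fold higher in CX3CR1low cells (limma, adjusted p = 0.339), with an interval of -0.83 to 0.080. It ran from -0.41 to -0.28 over all settings. Pf4 lies next to Cxcl3 and to Ppbp, the gene of another platelet chemokine, in the annotation. Cxcl3 differed by 0.90 and Ppbp by 0.11 ± 0.29, with Ppbp at 7.21 and 7.27 in CX3CR1bright cells, against 6.75 and 7.50 in CX3CR1low cells. Of the 8 platelet markers in the table Gp5, Gp6 and Tubb1 lay below the array median on every array. The list averaged 4.32 and 4.34 in CX3CR1bright cells, against 4.11 and 4.04 in CX3CR1low cells. Of its tested members Gp9 and Clec1b lay above the array median only on the CX3CR1bright arrays. Itga2b stood at 4.93 and 4.79 in CX3CR1bright cells, against 5.07 and 4.96 in CX3CR1low cells. Treml1 had the opposite sign, at 4.96 and 4.90, against 4.70 and 4.26. The part of platelets in the Pf4 level was not tested.

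**Figure D4:**
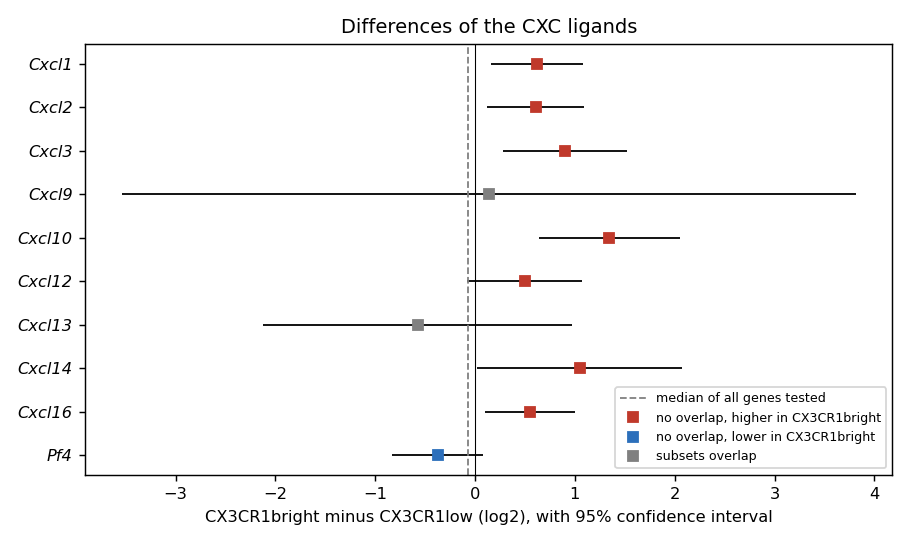
Difference of each ligand, CX3CR1bright minus CX3CR1low, on the log2 scale (horizontal axis) with its 95% confidence interval from limma. Red squares are ligands higher and the blue square the ligand lower in CX3CR1bright cells without overlap, grey squares are those with overlap, and the dashed line is the median of all genes tested (-0.070). The intervals of Cxcl9, Cxcl12, Cxcl13 and Pf4 cross 0.

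Of the remaining mouse CXC ligands, Cxcl11 and Cxcl15 lay below the array median on every array and Cxcl17 was too dim to be tested. Cxcl5, a neutrophil attractant, stood at 3.82 and 4.65 in CX3CR1bright cells, against 4.33 and 4.51 in CX3CR1low cells, with overlap.

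The receptors of the family showed no common direction. Of 10 listed CXC and atypical receptor genes 8 were tested, 4 with positive and 4 with negative differences, a median of 0.050, and 0 past the adjusted threshold (limma, 1 higher and 2 lower at an unadjusted p under 0.05, beside 7.03% and 11.8% of all genes tested). Cxcr3, the receptor of Cxcl9 and Cxcl10, stood at 5.93 and 5.55 in CX3CR1bright cells, against 6.64 and 6.71 in CX3CR1low cells, a difference of -0.93 ± 0.21 (limma, adjusted p = 0.132). Cxcr6, the receptor of Cxcl16, stood at 5.43 and 4.87, against 4.47 and 4.38, a difference of 0.72 ± 0.25 (limma, adjusted p = 0.220). Thus Cxcr3 and its ligand Cxcl10 had opposite signs and Cxcr6 and Cxcl16 the same sign, without overlap in each case. The atypical receptor gene Ackr2, which clears inflammatory CC chemokines, stood at 3.66 and 3.65 in CX3CR1bright cells, against 4.42 and 4.08 in CX3CR1low cells. It lay below the array median on both CX3CR1bright arrays and was tested only through the CX3CR1low arrays, where it is higher, so it supports nothing as 1 of the 2 lower receptors. Ackr3, a scavenger of Cxcl12, differed by 0.58 ± 0.32 (limma, adjusted p = 0.399). Cxcr4 stood at 10.82 and 10.75 in CX3CR1bright cells, against 10.75 and 10.95 in CX3CR1low cells, with overlap. Cxcr2, the receptor of Cxcl1, Cxcl2 and Cxcl3, stood at 3.36 and 4.07 in CX3CR1bright cells, against 3.75 and 3.13 in CX3CR1low cells, above the array median on 1 array of each subset.

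Proteases that trim or release CXC ligands differed in both directions. Of 7 listed 6 were tested, 3 higher and 2 lower without overlap, beside 18.9% and 31.5% of all genes tested, so that the lower count is close to the background. The adjusted threshold was passed by 0 (limma, 3 higher and 1 lower at an unadjusted p under 0.05, beside 7.03% and 11.8%). Mmp2, a gelatinase that can cut Cxcl12 and is made by fibroblasts, stood at 7.39 and 7.50 in CX3CR1bright cells, against 6.37 and 6.24 in CX3CR1low cells, a difference of 1.14 ± 0.19 (limma, adjusted p = 0.0913). Dpp4, which trims Cxcl10 and Cxcl12, stood at 4.55 and 4.82, against 3.59 and 3.68, a difference of 1.05 ± 0.20 (limma, adjusted p = 0.103), with the CX3CR1low levels at the array median. Mmp9, the other gelatinase, had the opposite sign at 4.74 and 4.74, against 5.80 and 5.66, a difference of -0.99 ± 0.18 (limma, adjusted p = 0.102). The macrophage elastase gene Mmp12 differed by 1.32 ± 0.50. Adam10 and Adam17, which release Cxcl16 from the membrane, differed by -0.27 ± 0.19 and 0.30 ± 0.26.

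Genes of NF-kB signalling differed in both directions beside Cxcl1, Cxcl2 and Cxcl3. The genes of the decay of chemokine messenger RNA given below had negative differences only. Of 19 genes listed for signalling and decay together 18 were tested, 8 higher and 8 lower without overlap, beside 18.9% and 31.5% of all genes tested. The median was -0.053 and 0 passed the adjusted threshold (limma, 2 higher and 6 lower at an unadjusted p under 0.05, beside 7.03% and 11.8% of all genes tested). Il1b, an inducer of these ligands, stood at 11.93 and 11.67 in CX3CR1bright cells, against 11.33 and 11.08 in CX3CR1low cells, a difference of 0.59 ± 0.21. Rel, an NF-kB subunit, stood at 11.02 and 11.10, against 10.50 and 10.17, a difference of 0.73 ± 0.21 (limma, adjusted p = 0.176). Tnf, another inducer, had the opposite sign at 9.77 and 9.82, against 10.41 and 10.39, a difference of -0.60 ± 0.18 (limma, adjusted p = 0.180). The inducers thus differed in direction between themselves. So did the NF-kB subunits: beside Rel, Nfkb2 differed by 0.22 ± 0.19, Rela by -0.47 ± 0.18 and Relb by -0.14 ± 0.18, each without overlap. Zfp36l2, of the family of tristetraprolin, which destabilises messenger RNA, differed by -0.84 ± 0.18 (limma, adjusted p = 0.122) and Zc3h12a, the ribonuclease Regnase-1, by -0.48 ± 0.18 (limma, adjusted p = 0.249). Tristetraprolin itself, Zfp36, overlapped between the subsets at -0.16 ± 0.20. Zfp36l1, of the same family, differed by -0.23 ± 0.20 without overlap.

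**Figure D5:**
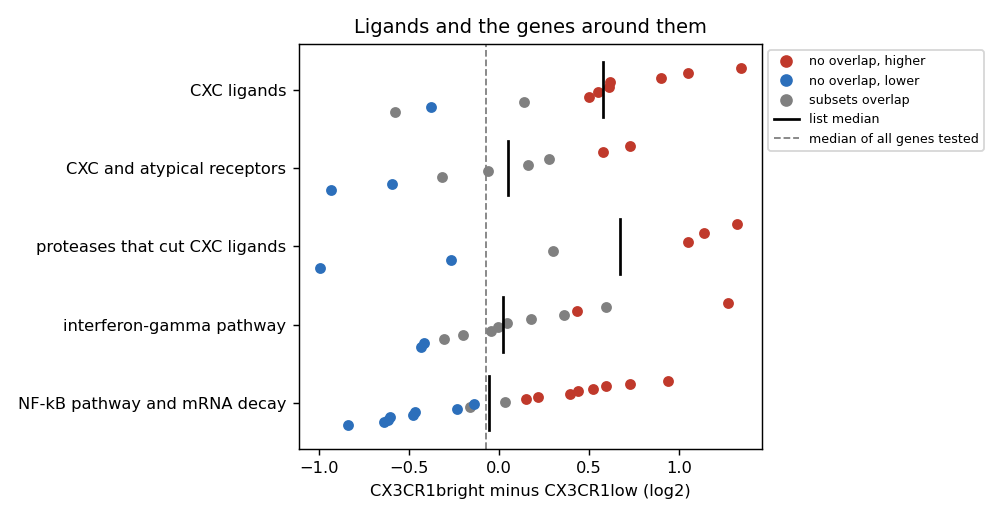
Difference of each tested gene, CX3CR1bright minus CX3CR1low, on the log2 scale (horizontal axis) in 5 lists (rows). Points are genes, red and blue where the subsets do not overlap and grey where they do, black bars are list medians and the dashed line is the median of all genes tested (-0.070). The ligands have 7 red points and 1 blue, and the NF-kB list 8 of each.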

How the data were processed

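RNA of 4 sorted macrophage samples was hybridised to Affymetrix whole-transcript arrays after labelling with the WT Pico kit, per the labels' protocols. The deposited values are log2 levels. Per the submitters' processing notes, the authors made them with RMA, and Affymetrix Expression Console 1.4 is named there. The genome build is not given in the sources used here, and probe intensities were not used here. Of 34390 transcript clusters 23521 carried 1 gene symbol, 1814 several and 9055 none. The cluster with the highest mean was kept for a gene with several, which left 22180 genes. Symbols were checked by Entrez identifier against RefSeq (GRCm38.p6), which matched 23328 clusters and updated 0.

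A gene was tested if at least 2 arrays lay above that array's median (13133 genes). The test was the two-sided moderated test of limma 3.58.1 (lmFit, then eBayes, under R 4.3.3), with Benjamini-Hochberg adjustment over all genes tested and a threshold of 0.05. The fit had 2 residual and 3.28 prior degrees of freedom. Precision is limited by having 2 arrays in a subset, and a p-value here reflects how pools of mice vary, not single animals. The procedure was tested on simulated data. The members and lists were chosen with earlier results of these data known. All 10 ligands are named, and of each other list the members with the smallest p and those whose role a sentence needs. Genes alike in pattern were sought for ligands with no overlap and at least a 2-fold difference, and are the 3 with the smallest Euclidean distance. Lists covered CXC receptors, proteases, interferon-gamma and NF-kB genes, and markers of macrophages, keratinocytes, fibroblasts, endothelial cells, pericytes, platelets, neutrophils, dendritic cells, Langerhans cells, T cells, mast cells and melanocytes. Alternatives were other filters, quantile, median and cyclic loess scaling over all clusters, an intensity trend, a robust prior, the mean of a gene's clusters, the replicate number as a block, and each array left out. No column was left out. Promoter sequences are 250 bases before RefSeq starts.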

Additional observations from a re-analysis of the deposited data

How the results depend on the processing

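Of 129 differences of the ligands over 13 alternatives, 124 kept their direction and stayed short of the threshold. Cxcl10 passed with the stricter filter (1.34, limma, adjusted p = 0.0473), which tests 7327 genes, so that 1 ligand was called there and 0 under the other settings. Signs turned for Cxcl9, at -1.74 without CX3CR1bright replicate 1 and -1.25 without CX3CR1low replicate 2 (range -1.74 to 2.02 with single arrays left out), and for Cxcl13, at 0.024 without CX3CR1bright replicate 2 and 0.16 without CX3CR1low replicate 1 (range -1.31 to 0.16). The cause was not tested. Cxcl12 was too dim for the stricter filter. The number of ligands higher without overlap was 7 under every setting but the stricter filter (6) and without CX3CR1bright replicate 2 (8). The number lower without overlap was 1 to 3 with 1 array left out, 3 without CX3CR1bright replicate 1 and 2 without CX3CR1low replicate 2. The median over the ligands ran from 0.54 to 0.68.

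Over all genes, 8 higher and 10 lower calls became 1 and 0 with no filter, after quantile normalization and under a robust prior (limma, 2865, 2327 and 2427 at an unadjusted p under 0.05). They became 174 and 290 with the stricter filter and 112 and 196 under an intensity trend, and 19 and 14 after cyclic loess. With 1 array left out, 0 to 111 were higher and 0 to 43 lower. The counts of 0 (limma) came without CX3CR1bright replicate 2, CX3CR1low replicate 1 and CX3CR1low replicate 2, where an unadjusted p under 0.05 was found for 2180, 1453 and 1212 genes, and the 111 and 43 without CX3CR1bright replicate 1. A subset left with 1 array was assumed to vary like the other. With the replicate number as a block, 0 genes were higher and 0 lower (limma, 2637 at an unadjusted p under 0.05). The number is not said to mark a shared litter, and deviations of same-numbered arrays from their subset mean correlated at 0.155 over 13133 genes. With 2 arrays in a subset, the replicate 1 and replicate 2 pairs give the same value by construction. Signal near the array median limits Cxcl12 and Dpp4.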

Other observations

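The genes closest to Cxcl9 in pattern over the 4 arrays were looked up after its values were seen. By distance between centred levels they were Gbp4, Gbp8, Fa2h, Cyp2g1 and Ly6c2, at 0.40, 0.927, 0.997, 1.13 and 1.25. Gbp8, of the same GTPase family as Gbp4, stood at 5.53 and 2.13 in CX3CR1bright cells, against 5.88 and 3.26 in CX3CR1low cells. Gbp4, Gbp8 and Cyp2g1 lay below the array median on replicate 2 of both subsets. These genes were tested only through the replicate 1 arrays, where they are high. Ly6c2, a surface antigen gene of inflammatory monocytes, stood at 6.89 and 4.66, against 7.54 and 3.90. It was picked for its nearness to Cxcl9 on these arrays, so its higher level on replicate 1 supports nothing further. For Cxcl10 the closest genes were Snhg15, Abi3 and Alox15, a lipoxygenase gene, at distances of 0.066, 0.083 and 0.11. Alox15 stood at 5.41 and 4.77 in CX3CR1bright cells, against 3.82 and 3.47 in CX3CR1low cells.

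Marker lists of other cells, as the median difference over their tested members, lay at 0.49 for conventional dendritic cells (9 tested), -0.079 for endothelial cells (8 tested), 0.068 for pericytes (8 tested), -0.26 for mast cells (7 tested) and 0.11 for melanocytes (5 tested). The medians were 1.66 for keratinocytes (8 tested), 1.01 for fibroblasts (10 tested), 1.76 for Langerhans cells (6 tested), 0.25 for T cells (5 tested), 0.45 for platelets (5 tested), 0.28 for neutrophils (3 tested) and -0.35 for macrophages (10 tested). The platelet value includes Gp9 and Clec1b, tested only through the CX3CR1bright arrays, and the pericyte value Des, tested only through the CX3CR1low arrays. The conventional dendritic cell value covers 6 positive and 3 negative differences that lie far apart. Among them Ccr7 differed by 2.22 ± 0.22, Flt3 by 2.13 ± 0.24 and Cd209a by -1.30 ± 0.23. None of the marker genes passed the adjusted threshold (limma).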
